A study of Mus musculus with 6 samples.

Results

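The genes described here are 8 genes of the contractile apparatus and fuel supply of differentiated skeletal muscle fibres, followed in muscle stem cells (satellite cells) sorted from mouse muscle. They were chosen by name: the skeletal actin Acta1, the fast troponins Tnnt3, Tnni2 and Tnnc2, the fast myosin light chains Mylpf and Myl1, the fast myosin heavy chain Myh4 and the muscle creatine kinase Ckm. The choice was made with earlier results of these data known. Of the 8, 7 had a row in the expression table of 12067 rows, and Tnnc2, which had none, was not analysed here. All libraries came from male C57BL/6 mice, from cells sorted as CD45-, CD31-, Sca1- and VCAM+, stained with 5 uM ThiolTracker Violet (a dye that reports glutathione, GSH, and other thiols) and sorted again. There were 3 groups of 2 libraries each: old GSH-low cells and old GSH-high cells, both from mice of 23 months with 2 animals pooled per library, and young cells from mice of 4 months with 1 animal per library. The young cells were kept whole after staining and carry a glutathione status of high in the labels. The labels do not say whether the old GSH-low and old GSH-high libraries were cut from the same pools.

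In a fibre, thin filaments of actin slide past thick filaments of myosin. The troponin complex (Tnnt, Tnni and Tnnc subunits) on the thin filament holds contraction off until calcium binds, and fast and slow fibres use different genes for the same subunit. Resting satellite cells lie beside the fibre and are known for little expression of these genes, which are switched on when their progeny differentiate and fuse.

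Values are RPKM, read numbers scaled to the length of a gene's exons and to the size of the library, so levels can be set beside each other between genes. The libraries held 50708747 and 46997444 reads in table genes in old GSH-low cells, 68791509 and 60760753 in old GSH-high cells and 63114484 and 60052694 in young cells. A floor of 3 reads corresponds to between 0.0436 and 0.0638 CPM, reads scaled to library size alone. All 16 satellite cell markers had a row, and their summed level was 3010 and 2858 RPKM in old GSH-low, 3484 and 3292 RPKM in old GSH-high and 3793 and 3580 RPKM in young libraries. Changes are log2 fold changes on the log2(RPKM + 1) scale, which understates the change of low genes, tested with limma over 10609 genes with at least 1 RPKM in at least 2 libraries. A two-sided test was used, and a change was called where the p adjusted by the Benjamini-Hochberg method fell under 0.05. With 2 libraries per group, the spread of each gene has 3 residual degrees of freedom shared by the groups. The limma fit moderates this spread with that of the other tested genes, so standard errors and p-values rest on those genes too.

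The genes lie on 5 chromosomes of GRCm38 (GENCODE annotation), and 4 of them share chromosome 7. Tnni2 (chr7:142441808-142444410, plus strand) ends 54.4 kb before Tnnt3 (chr7:142498836-142516009, plus strand) begins. Ckm (chr7:19404776-19422841) and Mylpf (chr7:127208890-127214298), both on the plus strand, lie far from this pair. Acta1 is at chr8:123891769-123894751 on the minus strand, Myl1 at chr1:66924295-66945404 on the minus strand, Myh4 at chr11:67238029-67260446 on the plus strand and Tnnc2 at chr2:164777161-164779967 on the minus strand.

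Promoters were matched in RefSeq for 6 of the 8 genes (Acta1, Tnnc2, Ckm, Mylpf, Myl1 and Myh4). Those of the most abundant gene, of a light chain and of the least abundant gene are shown because these genes moved in the same direction from different chromosomes. Each runs 250 bases before to 50 bases after the RefSeq start (GRCm38.p6), 5′ to 3′ on the gene's strand. Capitals mark matches on either strand to CANNTG (the E-box, the motif bound by MyoD and myogenin), to TATAAA, to the MEF2 motif and to the CArG box (the motif of serum response factor).
Acta1, chr8:123894726-123895025, minus strand: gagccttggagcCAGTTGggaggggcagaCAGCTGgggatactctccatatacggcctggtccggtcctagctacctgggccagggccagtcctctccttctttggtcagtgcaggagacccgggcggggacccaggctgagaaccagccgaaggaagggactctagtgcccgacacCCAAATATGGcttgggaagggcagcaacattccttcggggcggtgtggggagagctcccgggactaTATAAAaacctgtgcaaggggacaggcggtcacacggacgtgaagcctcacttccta
Myl1, chr1:66945007-66945306, minus strand: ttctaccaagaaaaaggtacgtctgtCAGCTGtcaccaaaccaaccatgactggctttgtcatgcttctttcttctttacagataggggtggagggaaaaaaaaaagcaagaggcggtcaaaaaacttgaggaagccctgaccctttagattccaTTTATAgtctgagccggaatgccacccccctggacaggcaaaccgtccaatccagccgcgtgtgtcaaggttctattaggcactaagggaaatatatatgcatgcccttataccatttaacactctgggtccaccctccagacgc
Myh4, chr11:67237562-67237861, plus strand: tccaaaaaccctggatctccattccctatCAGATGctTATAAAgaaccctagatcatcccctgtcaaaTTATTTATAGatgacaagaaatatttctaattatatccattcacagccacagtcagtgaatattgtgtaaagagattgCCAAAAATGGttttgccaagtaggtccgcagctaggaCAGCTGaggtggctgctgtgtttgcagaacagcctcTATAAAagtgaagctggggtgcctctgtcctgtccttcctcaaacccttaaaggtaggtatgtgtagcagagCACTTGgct

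The Acta1 window held 2 E-boxes, 1 CArG box and 1 TATAAA. Myl1 had 1 E-box and 1 TATAAA, the TATAAA on the reverse strand. In the Myh4 window there were 3 E-boxes, 3 TATAAA, 1 CArG box and 1 MEF2 match, which overlaps one of the TATAAA. The windows of Ckm and Mylpf held 1 E-box each and that of Tnnc2 held 2. Among 32851 mouse promoters of the same length, 72.3% held an E-box, 13.6% a TATAAA, 3.19% a MEF2 match and 1.63% a CArG box, so most promoters of this length hold an E-box. A match describes letters in a window, not a bound site.

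Every one of the 7 genes with a row was higher in both old GSH-low libraries than in any of the other 4 libraries. On group means, levels in old GSH-low cells were between 2.13 and 3.88 times those in old GSH-high cells and between 1.71 and 5.37 times those in young cells. The fast troponins Tnnt3 and Tnni2 were furthest apart between the old fractions, and Acta1 least. Old GSH-high and young cells lay close to each other, with ratios of means between 0.689 and 1.44.

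**Figure D1:**
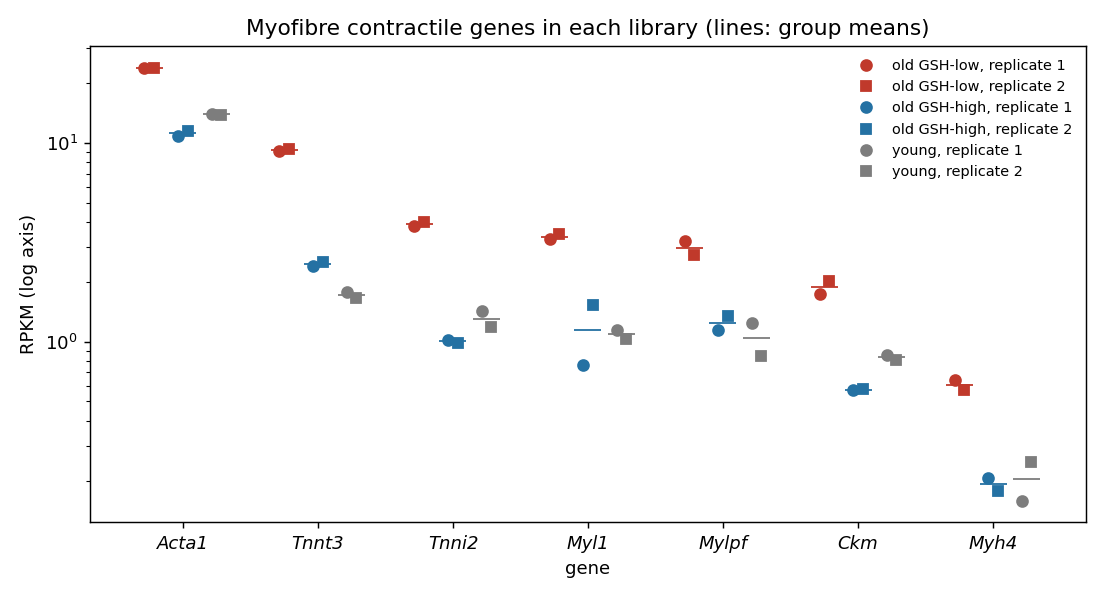
RPKM of the 7 genes in each library on a log axis, with horizontal lines at group means (n = 2). The 2 old GSH-low libraries lie above the other 4 for each gene, from Acta1 at 23.8 and 23.9 RPKM down to Myh4 at 0.641 and 0.570 RPKM.

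Actin of the thin filament was the most abundant of the set. Acta1 had 23.8 and 23.9 RPKM in old GSH-low libraries, 10.9 and 11.5 RPKM in old GSH-high libraries and 14.0 and 13.9 RPKM in young libraries. The 3 groups did not overlap, and old GSH-high was the lowest. Acta1 averaged 23.8 ± 0.0953 RPKM in old GSH-low, 11.2 ± 0.455 RPKM in old GSH-high and 13.9 ± 0.0611 RPKM in young cells (SD, n = 2 each). Between the old fractions it rose by 1.03 ± 0.08 on the log2 scale (SE; limma adjusted p = 0.000149). Against young cells, old GSH-low was higher by 0.74 ± 0.08 (limma adjusted p = 0.000194). Acta1 overlaps Gm20388, annotated as protein-coding on the opposite strand, which had no row in the table used here. Reads of Acta1 may be shared with its close relatives Actc1 (cardiac actin) and Acta2 (smooth muscle actin), whose levels took other courses. Acta2 had 60.1 and 67.3 RPKM in old GSH-low, 56.7 and 77.6 RPKM in old GSH-high and 141 and 125 RPKM in young libraries, while Actc1 reached at most 2.02 RPKM in any library.

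Tnnt3, the fast subunit that ties troponin to tropomyosin, showed the largest change of the set against young cells. It had 9.14 and 9.29 RPKM in old GSH-low libraries, 2.41 and 2.52 RPKM in old GSH-high libraries and 1.77 and 1.67 RPKM in young libraries. Its groups did not overlap, and young was the lowest. These levels rested on 743 and 708 reads in old GSH-low, 264 and 247 reads in old GSH-high and 170 and 155 reads in young libraries. Tnnt3 rose by 1.56 ± 0.09 on the log2 scale between the old fractions (limma adjusted p = 4.16e-05). Against young cells, old GSH-low was higher by 1.91 ± 0.09 (limma adjusted p = 1.31e-06). Tnnt3 overlaps Prr33, annotated as a long noncoding RNA on the opposite strand, and the sources used here do not say whether counting used strand. Prr33 itself was listed at 0.999 and 1.02 RPKM in old GSH-low, 0.402 and 0.424 RPKM in old GSH-high and 0.471 and 0.494 RPKM in young libraries.

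Tnni2, the fast inhibitory subunit, had 3.80 and 3.98 RPKM in old GSH-low libraries, 1.02 and 0.982 RPKM in old GSH-high libraries and 1.42 and 1.18 RPKM in young libraries. Old GSH-low was well clear of the other groups, which did not overlap each other either. The ratio of means between the old fractions, 3.88, was the highest of the set. Tnni2 rose by 1.29 ± 0.10 on the log2 scale between the old fractions (limma adjusted p = 0.000131) and by 1.09 ± 0.10 against young cells (limma adjusted p = 6.82e-05).

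Both light chains of fast myosin moved the same way. The regulatory light chain Mylpf had 3.19 and 2.74 RPKM in old GSH-low libraries, 1.14 and 1.34 RPKM in old GSH-high libraries and 1.24 and 0.849 RPKM in young libraries. Old GSH-high and young overlapped, and old GSH-low stood above both. Mylpf rose by 0.82 ± 0.12 between the old fractions (limma adjusted p = 0.00471) and by 0.96 ± 0.12 against young cells (limma adjusted p = 0.000497). The essential light chain Myl1 had 3.29 and 3.47 RPKM in old GSH-low libraries, 0.760 and 1.53 RPKM in old GSH-high libraries and 1.15 and 1.03 RPKM in young libraries. Its old GSH-high replicates lay on either side of the young libraries, the widest gap within a group of the set. Myl1 rose by 1.05 ± 0.16 between the old fractions (limma adjusted p = 0.00457) and by 1.06 ± 0.16 against young cells (limma adjusted p = 0.00106).

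Ckm, which regenerates ATP from phosphocreatine in the fibre, had 1.74 and 2.01 RPKM in old GSH-low libraries, 0.571 and 0.577 RPKM in old GSH-high libraries and 0.853 and 0.812 RPKM in young libraries. Only the old GSH-low libraries reached 1 RPKM, so Ckm entered the tested set through the group where it is high. It rose by 0.87 ± 0.10 between the old fractions (limma adjusted p = 0.00116) and by 0.65 ± 0.10 against young cells (limma adjusted p = 0.00133). Ckm overlaps an antisense gene, A930016O22Rik, which had no row in the table used here.

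Myh4, the heavy chain of the fastest fibres, was the lowest of the set and stayed under 1 RPKM in all 6 libraries. It had 0.641 and 0.570 RPKM in old GSH-low libraries, 0.207 and 0.177 RPKM in old GSH-high libraries and 0.159 and 0.249 RPKM in young libraries. The reads behind these levels were 198 and 165 in old GSH-low libraries, 86 and 66 in old GSH-high libraries and 58 and 88 in young libraries. Old GSH-low again stood apart, and old GSH-high and young overlapped. In a fit of every row with no filter, Myh4 rose by 0.43 ± 0.09 on the log2(RPKM + 1) scale between the old fractions (limma adjusted p = 0.0281) and by 0.42 ± 0.09 against young cells (limma adjusted p = 0.00805). The ratio of means, 3.15 between the old fractions, shows how far this scale shrinks a low gene. Heavy chain genes are close copies, so reads may be split with Myh1, which had 0.374 and 0.468 RPKM in old GSH-low, 0.155 and 0.229 RPKM in old GSH-high and 0.583 and 0.836 RPKM in young libraries.

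Counted together, 6 of the 8 genes were tested, and each of the 6 was called higher in old GSH-low cells when set against old GSH-high cells, where 3.69% of all tested genes were called higher and 1.69% lower. Against young cells the same 6 were called higher in old GSH-low cells, where 18.1% of all tested genes were called higher and 18.7% lower. Ckm passed the filter only through old GSH-low cells, and the genes were chosen with earlier results of these data known. These counts, and those with no filter that follow, are therefore a description. In the fit with no filter all 7 genes with a row were called higher in both comparisons, beside 3.94% of all rows between the old fractions and 19% of all rows against young cells. Their changes between the old fractions ran from 0.43 to 1.56 on the log2 scale, and the median over all tested genes was -0.01. These 2 comparisons share the old GSH-low libraries.

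**Figure D2:**
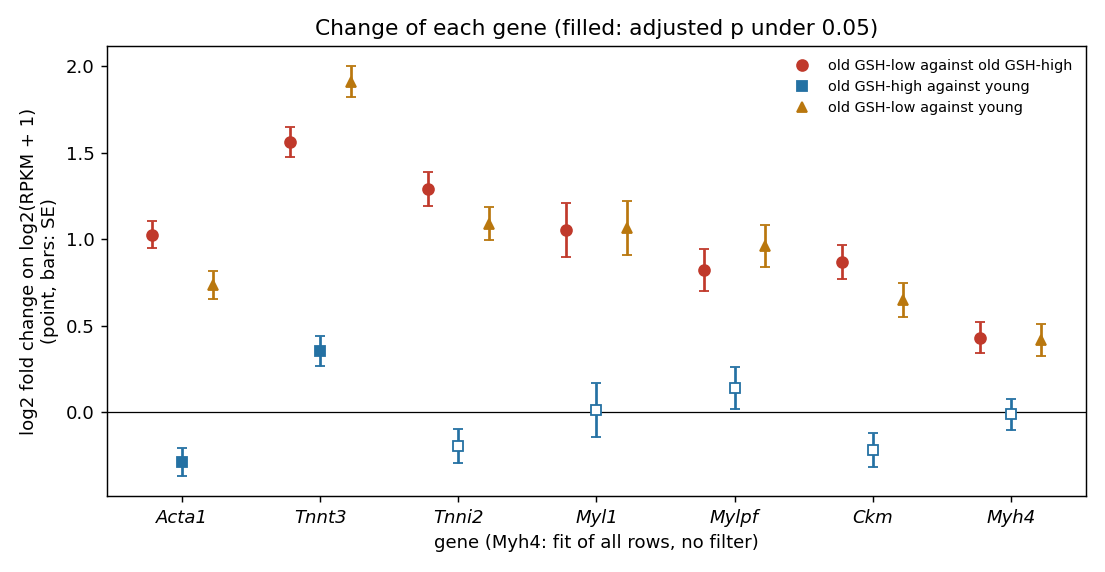
Log2 fold changes on log2(RPKM + 1) with standard errors for each gene in the 3 comparisons, filled where the adjusted p is under 0.05. Old GSH-low exceeded both other groups for each gene shown, whereas old GSH-high against young ran from -0.29 for Acta1 to 0.35 for Tnnt3.

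Between old GSH-high and young cells the genes divided. These groups differ in age, in animals per library and in whether the dye was used to split the cells, and so do old GSH-low and young cells. Of the 6 tested, 1 was called higher and 1 lower, where 15.1% of all tested genes were called higher and 13.7% lower. Tnnt3 rose by 0.35 ± 0.09 on the log2 scale (limma adjusted p = 0.0173) and Acta1 fell by 0.29 ± 0.08 (limma adjusted p = 0.0263). The other 4 did not pass. Tnni2 differed by -0.20 ± 0.10 (limma adjusted p = 0.164), Ckm by -0.22 ± 0.10 (0.132), Mylpf by 0.14 ± 0.12 (0.437) and Myl1 by 0.01 ± 0.16 (0.965). Myh4, in the fit with no filter, differed by -0.01 ± 0.09 (limma adjusted p = 0.928). Both calls were narrow. On reads recovered from the RPKM (limma-voom), Tnnt3 gave 0.52 with an adjusted p of 0.0674 and Acta1 gave -0.31 with an adjusted p of 0.0583. When either old GSH-high library was left out, Tnnt3 no longer passed, at an adjusted p of 0.0831 without replicate 1 and 0.107 without replicate 2, with a range of 0.0108 to 0.107 over the alternatives. Acta1 lost its call in 8 of 14 alternative fits, with adjusted p between 0.0534 and 0.201. Leaving out old GSH-low replicate 1 gave 0.0534, old GSH-low replicate 2 gave 0.0536, old GSH-high replicate 1 gave 0.201 and old GSH-high replicate 2 gave 0.0915.

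The makeup of the set also differed between the groups. Summed over the 7 genes, the level was 45.6 and 46.0 RPKM in old GSH-low, 17.0 and 18.7 RPKM in old GSH-high and 20.5 and 19.7 RPKM in young libraries. The same genes took 76.8 and 78.6 CPM in old GSH-low libraries, 27.9 and 31.1 in old GSH-high libraries and 32.3 and 31.9 in young libraries. These are small shares of the RNA in each library. Acta1 made up 52.2% and 52.0% of the summed level in old GSH-low libraries, 64.0% and 61.8% in old GSH-high libraries and 67.9% and 70.5% in young libraries. Without Acta1, the sum was 21.8 and 22.1 RPKM in old GSH-low, 6.11 and 7.12 RPKM in old GSH-high and 6.59 and 5.79 RPKM in young libraries. In bulk samples like these, fewer cells of a type and less RNA per cell cannot be told apart.

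**Figure D3:**
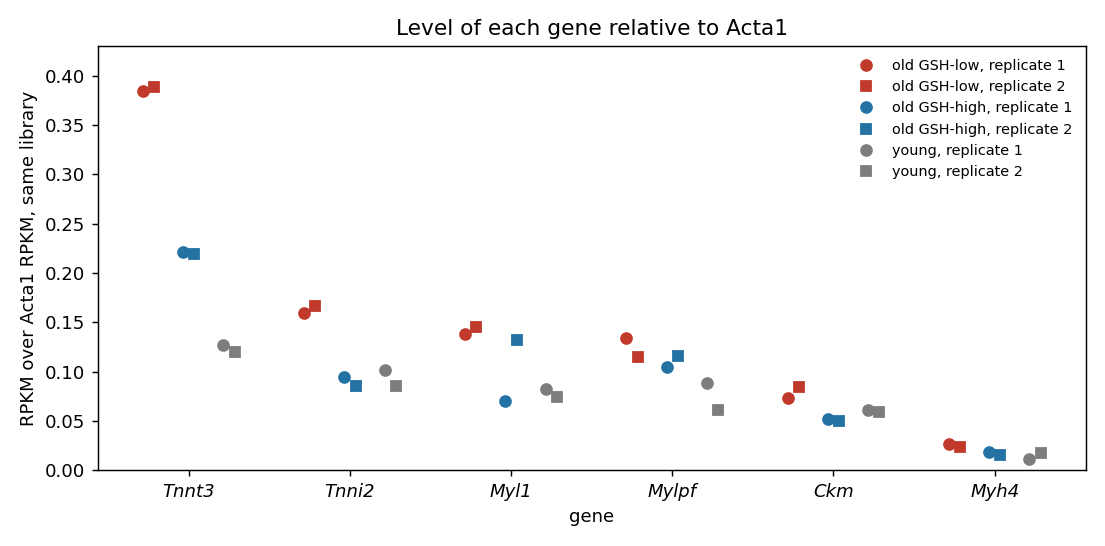
RPKM of each gene divided by the Acta1 RPKM of the same library. Tnnt3 separates the 3 groups, at 0.385 and 0.389 in old GSH-low libraries, 0.221 and 0.219 in old GSH-high libraries and 0.127 and 0.120 in young libraries.

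Tnnt3 relative to Acta1 was 0.385 and 0.389 in old GSH-low libraries, 0.221 and 0.219 in old GSH-high libraries and 0.127 and 0.120 in young libraries. This ratio kept the 3 groups apart with close replicates, so the old GSH-high cells stood between the other groups in it although their summed level did not. Tnnt3 relative to its neighbour Tnni2 was 2.41 and 2.33 in old GSH-low libraries, 2.36 and 2.57 in old GSH-high libraries and 1.25 and 1.41 in young libraries. By that ratio the old fractions overlapped, and both lay above young cells. The order of mean levels was Acta1, then Tnnt3, in all 3 groups, with Ckm and Myh4 last. Tnni2 held the third place in old GSH-low and young cells and the fifth in old GSH-high cells, where the spread of Myl1 covers the gap between Tnni2 and Mylpf.

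Other genes of the myofibre were called in smaller part. Lists of 99 further genes in all (fast-fibre, slow-fibre, thin filament and Z-disc, coupling and energy, and embryonic and cardiac genes) had 55 rows, of which 41 were tested. Between the old fractions, 5 of these rose and 1 fell, beside 3.69% and 1.69% of all tested genes, with a median of 0.13 on the log2 scale. In old GSH-low against young cells, 8 rose and 14 fell, beside 18.1% and 18.7% of all tested genes. In old GSH-high against young cells, 5 rose and 15 fell, beside 15.1% and 13.7%. Whether these genes differ in their change from the 7 contractile genes was not tested. These lists hold no row for Myh2, Myh7, Ttn, Tnni1 or Tnnc1.

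Tcap, the titin cap of the Z-disc, had the largest change of the tested genes of these lists between the old fractions. It had 5.05 and 7.27 RPKM in old GSH-low libraries, 0.793 and 0.886 RPKM in old GSH-high libraries and 1.23 and 1.15 RPKM in young libraries. Old GSH-low stood far above the rest. Tcap rose by 1.94 between the old fractions (limma adjusted p = 0.000107) and by 1.69 against young cells (limma adjusted p = 4.62e-05). Among 13 tested genes of the thin filament, Z-disc and M-line, Lmod2 (leiomodin, which nucleates actin) was the only other to rise between the old fractions, by 0.50 (limma adjusted p = 0.0212), none fell, and the median was 0.16. The abundant members of that list, Des (desmin, -0.14) and Cryab (a small heat shock protein of the Z-disc, -0.27), did not pass.

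Of 9 tested fast-fibre genes, 2 rose between the old fractions and none fell, beside 3.69% and 1.69% of all tested genes. The median of the 9 was 0.18. Pvalb, a calcium buffer of fast fibres, had 2.08 and 4.41 RPKM in old GSH-low libraries, 0.708 and 0.947 RPKM in old GSH-high libraries and 1.60 and 2.14 RPKM in young libraries, a log2 change of 1.16 between the old fractions (limma adjusted p = 0.0212). Pgam2, a muscle enzyme of glycolysis, rose by 0.57 (limma adjusted p = 0.0136). The replicates of Pvalb in old GSH-low cells differed widely and overlapped the young range. Of 12 tested genes of excitation-contraction coupling and muscle energy supply, 1 rose, Cox8b (a muscle subunit of cytochrome c oxidase), by 0.78 (limma adjusted p = 0.0207), and the median was 0.11. Of 5 tested slow-fibre genes none passed, with a median of 0.06. Lmod2, Pvalb, Pgam2 and Cox8b each lost their call without old GSH-high replicate 1, with adjusted p of 0.0602, 0.113, 0.0897 and 0.122 in that order, and without replicate 2, with 0.176, 0.0629, 0.0809 and 0.0681. Without old GSH-low replicate 1, Lmod2 lost it (0.132), and without old GSH-low replicate 2 so did Lmod2 (0.0955), Pgam2 (0.116) and Cox8b (0.143). With limma-voom on recovered reads, Pgam2 (0.0828) and Cox8b (0.0914) did not pass.

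Below the filter, 14 further rows of these lists were fitted with no filter. Between the old fractions 3 of them rose, beside 3.94% of all rows. These 3 genes are named after their values were seen. Cox6a2, another muscle subunit of cytochrome c oxidase, had 0.859 and 0.733 RPKM in old GSH-low, 0.128 and 0.0951 RPKM in old GSH-high and 0.194 and 0.225 RPKM in young libraries. Trim63, the ubiquitin ligase MuRF1, had 0.754 and 0.504 RPKM in old GSH-low, 0.102 and 0.0512 RPKM in old GSH-high and 0.0926 and 0.0180 RPKM in young libraries. Myoz1, a fast-fibre Z-disc protein, had 1.13 and 0.758 RPKM in old GSH-low, 0.298 and 0.265 RPKM in old GSH-high and 0.809 and 0.738 RPKM in young libraries. Cox6a2 and Trim63 in old GSH-low cells stood above both other groups, but Myoz1 in old GSH-low cells overlapped young cells.

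**Figure D4:**
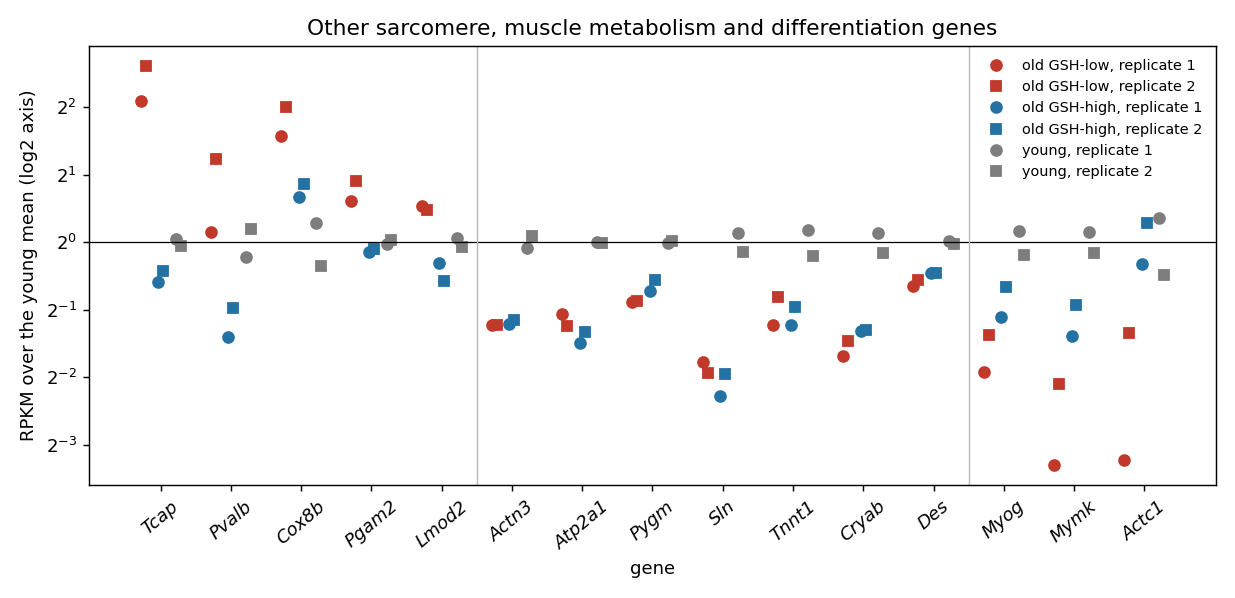
RPKM of 15 other myofibre and differentiation genes in each library, divided by the mean of the young libraries, on a log2 axis. On the left are genes called higher in old GSH-low than old GSH-high cells, in the middle genes lower in both old groups than in young cells, and on the right Myog, Mymk and Actc1, lowest in old GSH-low cells.

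Of 9 tested fast-fibre genes, 3 abundant ones took another course and were called lower in both old groups than in young cells. None of the 3 was called between the old fractions. Of all tested genes, 18.7% were called lower and 18.1% higher in old GSH-low cells, and 13.7% and 15.1% in old GSH-high cells. Pgam2 was called higher in old GSH-low than in young cells, by 0.50 (limma adjusted p = 0.00625). The others, such as Eno3 and Mylk2, did not pass against young cells. Actn3, the fast-fibre alpha-actinin, had 39.5 and 39.5 RPKM in old GSH-low libraries, 40.1 and 41.8 RPKM in old GSH-high libraries and 87.0 and 98.5 RPKM in young libraries. Atp2a1, the calcium pump of fast fibres, had 11.6 and 10.2 RPKM in old GSH-low, 8.56 and 9.61 RPKM in old GSH-high and 24.2 and 24.0 RPKM in young libraries. The young libraries stood alone at the top for both. Against young cells, Actn3 changed by -1.21 in old GSH-low cells and by -1.16 in old GSH-high cells, and Atp2a1 by -1.08 in old GSH-low cells and by -1.32 in old GSH-high cells. Between the old fractions Actn3 differed by -0.05 (limma adjusted p = 0.81). Pygm, the muscle glycogen phosphorylase, and the slow-fibre genes Sln (sarcolipin) and Tnnt1 (slow troponin T) were also called lower in both old groups than in young cells. Of the 5 tested slow-fibre genes, 2 were called lower and 1 higher than in young cells in each old group, beside the shares given above. The 1 called higher was Tpm3, by 0.40 in old GSH-low cells and by 0.50 in old GSH-high cells. Tnnt1 changed by -0.90 in old GSH-low cells and by -0.96 in old GSH-high cells against young, while its fast counterpart Tnnt3 was higher in both. In the smaller group of myofibre genes that rose against young cells in both old groups, Tpm2 (beta-tropomyosin) changed by 1.03 in old GSH-low cells and by 0.84 in old GSH-high cells. Jph2 (junctophilin, which couples membranes for calcium release) changed by 1.17 in old GSH-low cells and by 0.81 in old GSH-high cells.

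Genes that mark or drive the differentiation of myoblasts had 14 rows, of which 12 passed the filter. Of the 12 tested, none rose and 2 fell between the old fractions, beside 3.69% and 1.69% of all tested genes. The median of the 12 was -0.16. Mymk, the membrane protein of myoblast fusion, had 0.348 and 0.797 RPKM in old GSH-low libraries, 1.31 and 1.80 RPKM in old GSH-high libraries and 3.78 and 3.06 RPKM in young libraries. Its order was young, old GSH-high, old GSH-low, with no overlap. Mymk fell by 0.71 between the old fractions (limma adjusted p = 0.0391). Actc1, the actin of heart and of early muscle, fell by 0.90 (limma adjusted p = 0.0441). Actc1 also stands in the embryonic and cardiac list, so it is the same 1 gene that fell among the other myofibre genes. Des stands in 2 lists as well. Mymk did not pass once old GSH-high replicate 1 was left out (adjusted p of 0.0531), nor without old GSH-high replicate 2 (0.252) or old GSH-low replicate 1 (0.226), and the same omissions ended the call of Actc1 (0.0529, 0.261 and 0.241). The call of Actc1 also ended with a pseudocount of 0.1 (0.0553). Myog, or myogenin, had 2.96 and 4.32 RPKM in old GSH-low, 5.18 and 7.09 RPKM in old GSH-high and 12.6 and 9.88 RPKM in young libraries. Against young cells it fell by 1.40 in old GSH-low cells, and between the old fractions it differed by -0.62 (limma adjusted p = 0.0939). Myod1, the early myogenic factor, had 630 and 594 RPKM in old GSH-low, 877 and 759 RPKM in old GSH-high and 688 and 674 RPKM in young libraries, a difference of -0.41 between the old fractions that did not pass (limma adjusted p = 0.0542). The 2 rows below the filter, named after their values were seen, ran the other way. Myf6 (MRF4, a myogenic factor) had 0.894 and 1.15 RPKM in old GSH-low, 0.492 and 0.499 RPKM in old GSH-high and 0.951 and 0.701 RPKM in young libraries. Mef2c (a partner of the myogenic factors) had 0.702 and 0.604 RPKM in old GSH-low, 0.392 and 0.321 RPKM in old GSH-high and 0.112 and 0.147 RPKM in young libraries. For both, the old fractions did not overlap and old GSH-low was the higher, and Myf6 in old GSH-low cells overlapped young cells. In the fit with no filter, Myf6 differed by 0.43 ± 0.11 between the old fractions (limma adjusted p = 0.0585) and Mef2c by 0.29 ± 0.09 (limma adjusted p = 0.122), and Mef2c rose by 0.55 ± 0.09 in old GSH-low against young cells (limma adjusted p = 0.0021). In old GSH-low against young cells, 6 of the 12 fell and 1 rose, beside 18.7% and 18.1% of all tested genes. In old GSH-high against young cells 4 fell and 1 rose, beside 13.7% and 15.1%.

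Markers of other cell types also differed between the groups. Their counts between the old fractions stand beside 3.69% of all tested genes called higher and 1.69% called lower. The sort kept CD45-, CD31-, Sca1- and VCAM+ cells. Its negative markers would remove blood cells such as lymphocytes and macrophages (CD45), endothelial cells (CD31) and fibro-adipogenic progenitors (Sca1). The gate names no tendon marker. Tendon cell markers summed to 3125 and 2731 RPKM in old GSH-low, 835 and 664 RPKM in old GSH-high and 47.7 and 47.4 RPKM in young libraries, and 11 of 11 were called higher in old GSH-low than old GSH-high cells. Lymphocyte markers summed to 23.9 and 22.01 RPKM in old GSH-low, 2.19 and 3.35 RPKM in old GSH-high and 1.13 and 1.03 RPKM in young libraries, with 4 of 4 tested called higher between the old fractions. Endothelial markers ran the other way, at 32.4 and 24.6 RPKM in old GSH-low, 108.6 and 111.8 RPKM in old GSH-high and 46.2 and 53.9 RPKM in young libraries, with 13 of 14 called lower between the old fractions. The tendon sum in old GSH-high cells was far above that of young cells. Markers of fibro-adipogenic progenitors summed to 1574 and 1428 RPKM in old GSH-low, 1139 and 1081 RPKM in old GSH-high and 812.0 and 811.9 RPKM in young libraries. The T cell genes Cd3e and Cd3g and the macrophage genes Adgre1, Csf1r and Itgam had no row in the table used here. Of the other lists, fibro-adipogenic progenitors had 1 of 11 tested markers called higher and 2 lower between the old fractions, smooth muscle and pericytes 5 of 11 higher, fat cells 3 of 5 lower, macrophages and neutrophils 1 of 5 higher, Schwann cells 2 of 6 higher and 1 lower, and red blood cells 0 of 3. Among the satellite cell markers, 1 of 16 was called between the old fractions, Pax7, higher by 0.46, a call that ended without any 1 of the 4 old libraries (adjusted p of 0.0548 without old GSH-low replicate 1, 0.202 without old GSH-low replicate 2, 0.182 without old GSH-high replicate 1 and 0.103 without old GSH-high replicate 2). The part of these cells in the contractile gene levels was not tested.

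The 7 genes varied together over the 6 libraries: Pearson's r of log2 levels between pairs lay between 0.892 and 0.993 over 21 pairs, with a median of 0.943. These points share 3 groups of replicates, so the values describe the contrast of the groups again. Among 876 genes of sufficient level and spread, those most like the mean course of the set were Olfml3 (r = 0.992), Ccdc80 (0.991), Abi3bp (0.991), Rrad (0.988), Metrnl (0.976), Bcl3 (0.966), P3h2 (0.964), Plekhf1 (0.962), Cebpd (0.958) and Mmp13 (0.956). Olfml3, Ccdc80 and Abi3bp encode secreted proteins, Rrad a small GTPase and Cebpd a transcription factor. Rrad averaged 134.2 ± 6.84 RPKM in old GSH-low, 50.7 ± 2.12 RPKM in old GSH-high and 60.1 ± 3.33 RPKM in young cells (SD, n = 2 each). Abi3bp averaged 35.1 ± 2.22 RPKM in old GSH-low, 12.9 ± 0.712 RPKM in old GSH-high and 12.6 ± 0.178 RPKM in young cells (SD, n = 2 each). None of the 10 is a gene of the sarcomere, but the ranking held only genes with a mean of at least 5 RPKM. That minimum left out Tcap, Pvalb and Pgam2, so the absence of those genes says little. The sarcomere genes Actn3 and Tpm2 lay above it in every library and are not among the 10.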

How the data were processed

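Poly(A) RNA was reverse-transcribed with oligo(dT) and sequenced as single-end 150 bp reads, per the labels' protocols. The submitters' processing notes name Trim Galore, STAR, featureCounts (Subread) and edgeR, with the build GRCm38 (mm10) and no versions; strand and filters are not given in the sources used here. The deposited values are RPKM made by the authors, 1 table for all 6 libraries; how its rows were selected is not given in the sources used here. Whole reads could be recovered for 100% of genes (within 0.02 reads plus a relative 3e-07), assuming the exon length of the annotation, which held exactly for 97.8% of genes. In 144 genes, 230 values had the form of zeros replaced by a small number and were read as 0 reads; none is in the 7 genes.

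From the RPKM, log2(RPKM + 1) was tested with limma 3.58.1 (trend) in R 4.3.3, with a mean for each of 3 groups over 6 libraries. The labels do not fully say which replicates are independent pools, so p-values measure the spread between these libraries. Counting error alone is exact Poisson at 95%. Alternatives were other scaling, filters and pseudocount, limma-voom on recovered reads (an alternative, since RPKM are not counts), 4 libraries per comparison, a replicate block and leaving out each library. All 8 genes were described. From each list, up to 4 called genes in order of adjusted p and up to 2 of the highest level not called could be named, and the 10 genes most like the set were taken from those with a mean of at least 5 RPKM and an SD of at least 0.3. The genes and lists were chosen with earlier results of these data known.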

Additional observations from a re-analysis of the deposited data

How the results depend on the processing

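For the 6 tested genes, no direction changed in old GSH-low against either other group in the alternative fits that tested them. In old GSH-high against young cells, 2 values that did not pass changed sign: Myl1, at 0.01, lay between -0.25 and 0.27 with the opposite sign in 4 of 13 alternatives, and Mylpf, at 0.14, was -0.00033 without young replicate 2. Myh4 was fitted with no filter alone. The genes called higher numbered 6 between the old fractions and 6 in old GSH-low against young cells; a minimum of 5 RPKM, which left only Acta1 and Tnnt3 to test, gave 2 in each, and leaving out any library gave 6 to 6. In old GSH-high against young cells, the gene called higher (1) became 0 with limma-voom and 0 to 1 without single libraries, and the gene called lower (1) became 0 with 4 libraries, library size only, limma-voom or the replicate block, and 0 to 1 without single libraries. Of 240 values for single genes of the set, 229 kept their side of the threshold and 11 did not, all in that comparison. Over all genes, 571 were called between the old fractions, 864 with 4 libraries, 274 at 5 RPKM, and 312 to 863 without single libraries. The counts were 1493 to 3802 for old GSH-high against young (3051 in all libraries) and 2068 to 4295 for old GSH-low against young (3901). Other myofibre genes called between the old fractions numbered 6, against 1 at 5 RPKM and 1 to 7 without single libraries; in old GSH-high against young cells 20, against 11 at 5 RPKM and 13 to 22; and in old GSH-low against young cells 22, against 13 at 5 RPKM and 19 to 27. The stricter minimum tests fewer genes; the cause of the other shifts was not tested. Deviations of same-numbered libraries from their group means correlated at 0.07, -0.26 and -0.14 across the 3 pairs of groups. With 2 libraries per group, these values cannot tell whether same-numbered libraries share a pool. With the replicate block, 479, 2559 and 3350 genes were called, in the order of the comparisons above, and the calls of Acta1 in old GSH-high against young cells and of Actc1 between the old fractions (adjusted p = 0.0601) were lost. Recovered reads limit the lowest values, such as Myh4 with 58 to 198 reads per library.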
